A study of Mus musculus with 6 samples.

Results

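The JAK kinases and STAT factors measured here are 9 genes, chosen by name: the kinases Jak1, Jak2, Jak3 and Tyk2 and the transcription factors Stat3, Stat4, Stat5a, Stat5b and Stat6. All 9 had a row among the 23505 gene rows, with 0 further copy rows, and all 9 were among the 10509 genes with enough counts to be tested. RNA was sequenced from wild-type mouse liver T cells sorted as CD3+ CD4+ cells without CD8 or NK1.1, an antigen of natural killer (NK) cells. All mice were injected with concanavalin A (ConA), a lectin used to set off T cell driven liver injury. In the ConA group (3 samples) mice were gavaged with phosphate-buffered saline, and in the ConA+SIM group (3 samples) with simvastatin, an inhibitor of cholesterol synthesis, at 30 mg/kg. Gavage was given daily for 5 days ahead of ConA, at 1 h before it and at 24 h after it. The labels give no age, sex, strain or time of tissue collection, and there was no group without ConA. They also do not say whether each sample was a separate mouse, so p-values here reflect only how far these samples lay apart, and that distance could be technical.

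JAKs are tyrosine kinases bound to the inner tails of cytokine receptors. When a cytokine draws receptor chains together, the paired JAKs phosphorylate the receptor and then the docked STAT proteins, which form dimers, enter the nucleus and bind DNA. In CD4+ T cells the choice of STAT is tied to the lineage: STAT4 carries interleukin-12 (IL-12) signals towards Th1 cells, STAT6 interleukin-4 (IL-4) signals towards Th2 cells, STAT3 interleukin-6 and interleukin-21 signals towards Th17 and follicular helper cells, and STAT5A and STAT5B interleukin-2 and interleukin-7 signals for growth, survival and regulatory T cells. This signalling runs through phosphorylation, which RNA counts do not measure.

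Total counts ran from 17549429 to 25031862 per library. A count of 0 allows up to 3 counts, 0.118 to 0.175 CPM (the count as a rate per megaread of the scaled library total), for counting error only. ConA+SIM replicate 2 stood apart, with 18.4% of tested genes at 0 counts against 2.76% to 9.98% elsewhere. Of 12 listed CD4 T cell markers 9 had a row, all with counts in every library, and their summed level was 2271 to 3530 CPM in ConA and 3452 to 3663 in ConA+SIM. Summed sinusoidal endothelial markers (12 of 12 tested) ran from 327 to 2235 CPM in ConA, highest in replicate 2, and from 336 to 701 in ConA+SIM. Summed Kupffer cell and monocyte markers (12 of 15 tested) ran from 1506 to 3091 CPM in ConA and 1019 to 2525 in ConA+SIM. Summed neutrophil markers (7 of 8 tested) ran from 315 to 559 CPM in ConA and 617 to 971 in ConA+SIM, with Ly6g at 0 throughout. NK cell markers (7 of 10 tested; Ncr1 and Klra8 at 0 throughout) summed to 259 to 497 and 426 to 747 CPM, B cell markers (10 of 10) to 134 to 1677 and 609 to 1145, hepatocyte markers (9 of 16; Cps1 at 0) to 353 to 397 and 278 to 449, erythroid and platelet markers (5 of 8; Ppbp at 0) to 43.8 to 115 and 229 to 343, and the 2 CD8 genes to 4.72 to 33.1 and 26.3 to 54.1. JAK and STAT genes are expressed in those cells too. The part of other cells in the values below was not tested, and less RNA per cell cannot be told apart from fewer cells of a type.

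Stat5b, Stat5a and Stat3 lie side by side on chromosome 11, within 158864 bases (GRCm38, RefSeq). Stat5b (100780731 to 100859004, minus strand) and Stat5a (100859351 to 100885169, plus strand) are 346 bases apart and point away from each other, and Stat3 (100886806 to 100939594, minus strand) follows. The coding sequences of Stat5a and Stat5b, 2382 and 2361 bases long, were 90.7% identical over 2346 aligned bases, whereas any other pair of STAT members shared 58.3% to 65.5%, and the JAK pairs 59.2% to 64.6%. Of the 50-base windows of the Stat5a transcript, 15.8% occur unchanged in that of Stat5b (11.8% of the Stat5b windows), against 0 for each other pair of JAKs or STATs. The first pair of stretches is shown because it opens the longest identical run, 324 bases, within which a read cannot be assigned to either gene. Both run from base 541 to 660 of the coding sequence (GENCODE M21, 5′ to 3′), in exons 6 to 7 of Stat5a (chr11:100865496-100874112, plus strand) and exons 5 to 6 of Stat5b (chr11:100798612-100801416, minus strand), introns included in those spans. Capitals mark the bases that differ.
Stat5a: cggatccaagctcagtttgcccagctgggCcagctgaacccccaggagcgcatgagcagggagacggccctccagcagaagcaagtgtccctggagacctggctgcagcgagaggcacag
Stat5b: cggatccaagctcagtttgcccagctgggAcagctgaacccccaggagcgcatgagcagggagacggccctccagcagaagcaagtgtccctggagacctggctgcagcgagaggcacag
The second pair is the 120-base ungapped window with the most differences, 33, where reads can tell the genes apart. It covers coding bases 45 to 164, in exons 3 to 4 of Stat5a (chr11:100861382-100861756) and exons 2 to 3 of Stat5b (chr11:100804991-100808479).
Stat5a: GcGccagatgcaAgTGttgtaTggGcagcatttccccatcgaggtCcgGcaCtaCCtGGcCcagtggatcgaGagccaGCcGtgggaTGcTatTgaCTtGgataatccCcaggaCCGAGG
Stat5b: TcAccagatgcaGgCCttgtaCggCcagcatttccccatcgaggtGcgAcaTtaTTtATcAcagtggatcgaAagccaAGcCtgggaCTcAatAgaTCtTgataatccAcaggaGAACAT
The treatment of reads that match more than 1 place was not stated, so the split between Stat5a and Stat5b is uncertain. In GENCODE M21, whose gene models can end elsewhere than the RefSeq coordinates above, exons of other members overlap other genes too. Jak3 shares 404 exonic bases on the same strand with Insl3, which had at most 32 counts in a library. On the opposite strand Stat3 shares 72 with Stat5a and Stat6 shares 40 with Nab2 (149 to 1357 counts). Jak1 shares 4 with Raver2 (0 to 182 counts). An antisense gene covers 554 exonic bases of Tyk2, and the noncoding Gm28177 covers 1033 of Stat4 on the same strand. Neither of these neighbours has a gene row, so their counts are not known. The strand setting of the counting is not known either, so these overlaps leave the counts of those members uncertain.

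None of the 9 genes passed the test between ConA+SIM and ConA (edgeR quasi-likelihood test, adjusted p under 0.05; smallest adjusted p = 0.626), and 0 had an unadjusted p under 0.05. Over all tested genes 0.542% were called, all higher in ConA+SIM with 0% lower. An unadjusted p under 0.05 was reached by 8.85% of them, 5.31% higher and 3.54% lower. Of the members, 7 had lower and 2 had higher mean values in ConA+SIM, beside 52% of all tested genes with lower values. Their median log2 fold change was -0.21, against -0.041 over all tested genes. DESeq2, limma-voom and each of the other alternative fits also called 0 of the 9. Each member had from 617 to 24199 counts in every library, so counting error was 0.964% to 4.03% of the lowest count of a gene. The spread between replicates ran from 4.52% to 49.5% of the group mean. The lowest of these, Tyk2 in ConA, lay above the counting error of that gene at its lowest count (3.48%). That count, 826, was in ConA+SIM replicate 2. The ConA libraries held 2266 to 2806 counts of Tyk2, where counting error is smaller.

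**Figure D1:**
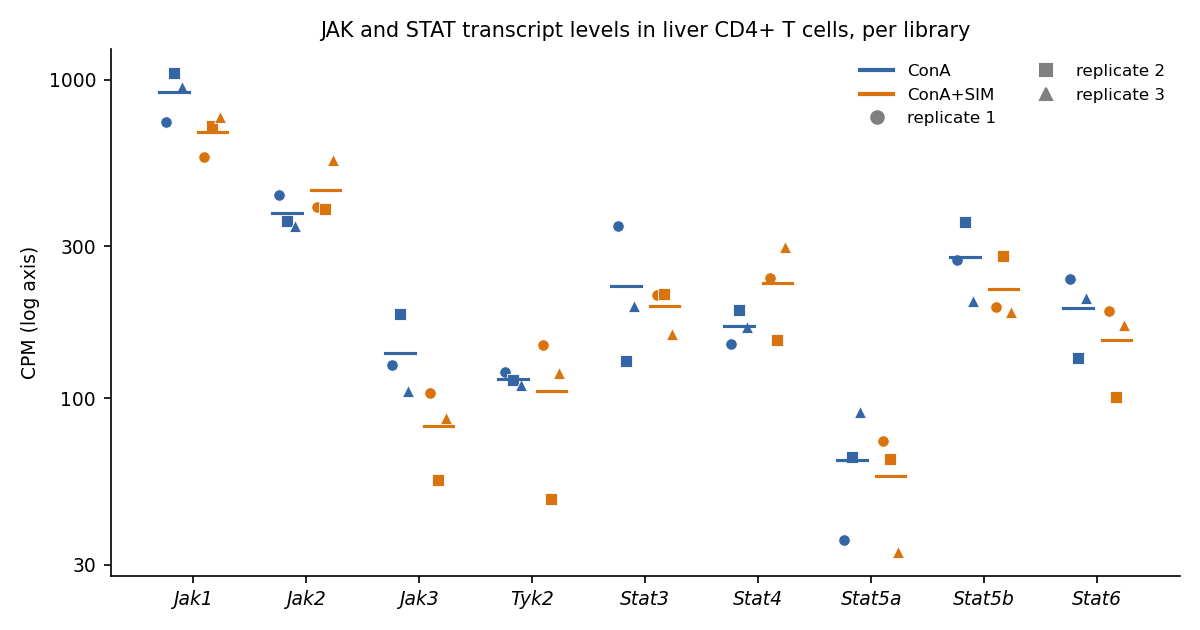
Level of each JAK and STAT gene in each library, in CPM on a log axis. Blue marks ConA and orange ConA+SIM, symbols give the replicate and bars the group means of 3 libraries; Jak3 is the one gene whose groups do not overlap.

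Jak1 pairs with one of the other JAKs on most cytokine receptors of T cells, those of the interferons and of the common gamma chain family included (chromosome 4, 101151974 to 101265282). It stood at 739, 1050.1 and 952 CPM in ConA replicates 1 to 3 and at 574, 714 and 763 CPM in ConA+SIM replicates 1 to 3. The groups overlapped only through ConA replicate 1, which lay below ConA+SIM replicate 3. Group means were 914 ± 159 and 684 ± 98.0 CPM (SD, n = 3 each). On the log2 scale ConA+SIM differed from ConA by -0.42 ± 0.20 (SE, edgeR adjusted p = 0.626). Its 95% interval, not adjusted for the number of genes, ran from -0.87 to 0.033. Jak1 was lower in each of 16 alternative fits, from -0.56 without ConA replicate 1 to -0.19 with a replicate block and offsets for transcript length and GC content.

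Jak3 is the partner of the common gamma chain, which Il2rg encodes, in the receptors for interleukin-2, IL-4, interleukin-7 and related cytokines (chromosome 8, 71676383 to 71690577). Its 3 ConA values were 127, 185 and 106 CPM and its ConA+SIM values 104, 55.4 and 87.0 CPM. All ConA+SIM libraries lay below all ConA libraries, by a gap of under 2 CPM between ConA replicate 3 (105.6) and ConA+SIM replicate 1 (103.8). Separation with ConA+SIM lower was seen in 1 of the 9 members and in 8.57% of all tested genes, and separation with ConA+SIM higher in 0 members and 9.18% of tested genes (17.8% in either direction). The means were 139 ± 40.9 and 82.1 ± 24.5 CPM, a log2 fold change of -0.76 ± 0.37 (edgeR adjusted p = 0.626), with a 95% interval from -1.59 to 0.064. It was lower in each of the 16 alternative fits, from -0.96 without ConA+SIM replicate 1 to -0.17 with length and GC offsets, alone or with a replicate block.

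Jak2, the kinase of the interferon-gamma and IL-12 receptors and of many blood-forming cytokines (chromosome 19, 29251803 to 29313095), had higher mean values in ConA+SIM. It stood at 436, 360 and 347 CPM in ConA and at 400, 393 and 561 CPM in ConA+SIM. The groups overlapped, and ConA+SIM replicate 3 was the highest library. The log2 fold change was 0.24 ± 0.22 (edgeR adjusted p = 0.99, 95% interval -0.25 to 0.74). It was above 0 in the 16 alternative fits but only 0.059 without ConA+SIM replicate 3.

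Tyk2 serves the receptors of type I interferons, IL-12 and interleukin-10 (chromosome 9, 21104068 to 21131393). The ConA libraries lay close together at 121, 114 and 110 CPM, whereas the ConA+SIM libraries were spread over 148, 48.2 and 120 CPM. The lowest and the highest library were both ConA+SIM, so the spread was 4.52% of the mean in ConA and 48.7% in ConA+SIM. The log2 fold change was -0.13 ± 0.41 (edgeR adjusted p = 0.999; interval -1.06 to 0.81). It was 0.22 without ConA+SIM replicate 2.

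Stat4, the IL-12 factor of Th1 cells (chromosome 1, 51987106 to 52107189), was the STAT member with the highest fold change. Its values were 148, 189 and 168 CPM in ConA and 239, 152 and 299 CPM in ConA+SIM. ConA+SIM replicates 1 and 3 lay above every ConA library, and replicate 2 lay among them. The means were 168 ± 20.7 and 230 ± 73.6 CPM, a log2 fold change of 0.45 ± 0.30 (edgeR adjusted p = 0.851; interval -0.22 to 1.12). The value stayed above 0 in the 16 alternative fits, from 0.21 without ConA+SIM replicate 3 to 0.68 without ConA+SIM replicate 2.

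Stat6, the IL-4 factor of Th2 cells (chromosome 10, 127642955 to 127660987), stood at 237 (replicate 1), 133 and 206 CPM in ConA and at 188, 101 and 169 CPM in ConA+SIM. Replicate 2 was the lowest library in each group, and the groups overlapped. The log2 fold change was -0.33 ± 0.33 (edgeR adjusted p = 0.999; interval -1.08 to 0.42). It was -0.10 without ConA+SIM replicate 2, -0.55 without ConA replicate 2 and 0.072 with length and GC offsets.

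Stat3, the factor of interleukin-6 family cytokines and of interleukin-10, stood at 348, 131 and 195 CPM in ConA and at 212, 213 and 159 CPM in ConA+SIM. The highest and the lowest library were both ConA, and all ConA+SIM values lay between them. The log2 fold change was -0.21 ± 0.36 (edgeR adjusted p = 0.999; interval -1.02 to 0.60). ConA replicate 1 set its sign: without it the value was 0.24, and without ConA replicate 2 it was -0.49.

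Stat5b stood at 272, 357 and 202 CPM in ConA and at 194, 279 and 187 CPM in ConA+SIM. Its relative Stat5a, which was lower per kb in every library, stood at 35.9, 65.3 and 90.3 CPM in ConA and at 73.6, 64.4 and 33.0 CPM in ConA+SIM. For both genes the groups overlapped. The log2 fold change was -0.33 ± 0.29 for Stat5b (edgeR adjusted p = 0.972; interval -0.98 to 0.31) and -0.16 ± 0.50 for Stat5a (edgeR adjusted p = 0.999; interval -1.30 to 0.97). For Stat5b it was -0.12 without ConA replicate 2 and -0.54 without ConA+SIM replicate 2. Added together, which does not depend on how reads were split between them, the 2 genes held 341 ± 70.9 CPM under ConA alone and 277 ± 62.3 with simvastatin, a log2 ratio of the means of -0.30 (two-sided exact permutation p = 0.4, where 3 against 3 cannot go below 0.1). Reads dropped for matching both genes would be missing from this sum as well.

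**Figure D2:**
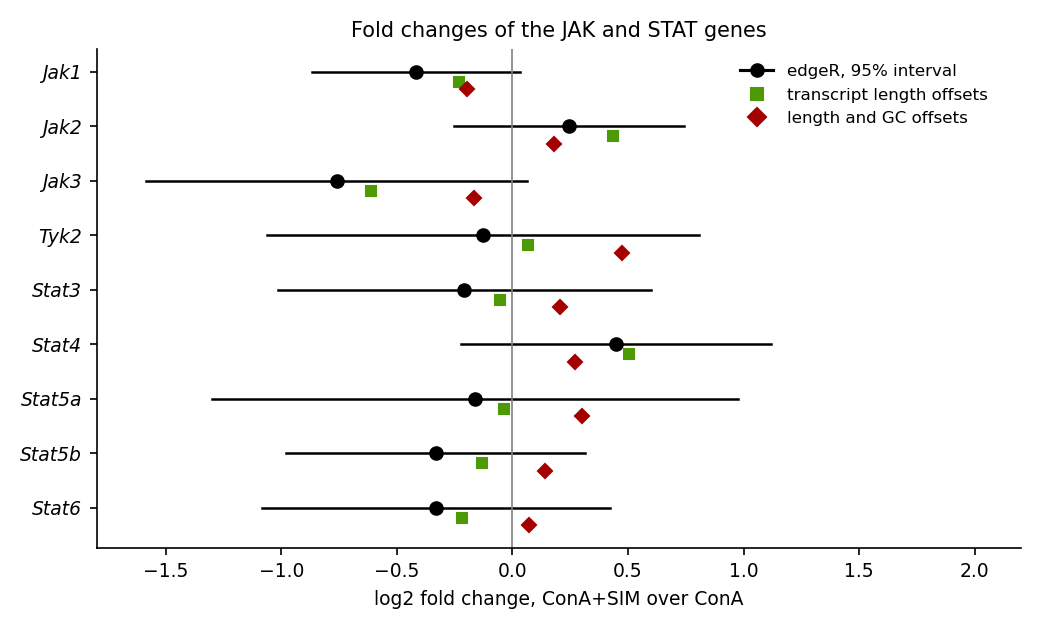
Log2 fold change of each gene, ConA+SIM over ConA, with its 95% interval (black, edgeR, 3 libraries per group) and the value with offsets for transcript length (green squares) or for length and GC content (red diamonds). All 9 intervals include 0, and with the second offset Jak1 and Jak3 are the genes left below 0.

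The intervals show what sizes of change these libraries could and could not separate from 0. As a ratio of ConA+SIM to ConA, the interval of Jak1 ran from 0.548 to 1.02 and that of Jak2 from 0.839 to 1.67. Those of Stat5a (0.406 to 1.97), Tyk2 (0.478 to 1.75) and Stat4 (0.857 to 2.17) were wider. The biological coefficient of variation that edgeR fitted ranged from 0.233 for Jak1 to 0.510 for Stat5a, with a median of 0.330 over the members. Among the 3552 tested genes in the same range of mean CPM (60.4 to 799) the median was 0.374. The fit draws the value of each gene towards that of genes of like abundance, so this nearness is partly built in.

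Fold changes in these libraries ran with transcript length, and the members are long transcripts of 2982 to 5213 nt. Median log2 fold changes went from 0.56 for the 573 tested genes of up to 1000 nt to -0.36 for the 1225 genes over 6000 nt. Among the 3345 tested genes as long as the members the median was -0.15 and 57.1% were lower in ConA+SIM, beside a median of -0.21 and 7 of 9 for the members. With offsets that removed each library's trend with length, the median of the members was -0.052 and 6 of 9 were below 0. The genes of like length then had a median of -0.030, with 51.3% below 0. With offsets for length and GC content the median of the members was 0.18, beside -0.029 for the genes of like length (51.5% below 0). Of the members 2 of 9 were below 0, Jak1 (-0.20) and Jak3 (-0.17), whereas Tyk2 stood at 0.48 and Stat4 at 0.27. The signs of Tyk2, Stat3, Stat5a, Stat5b and Stat6 therefore depended on this choice. Neither offset fit called any tested gene (edgeR; 749 and 550 genes at an unadjusted p under 0.05).

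**Figure D3:**
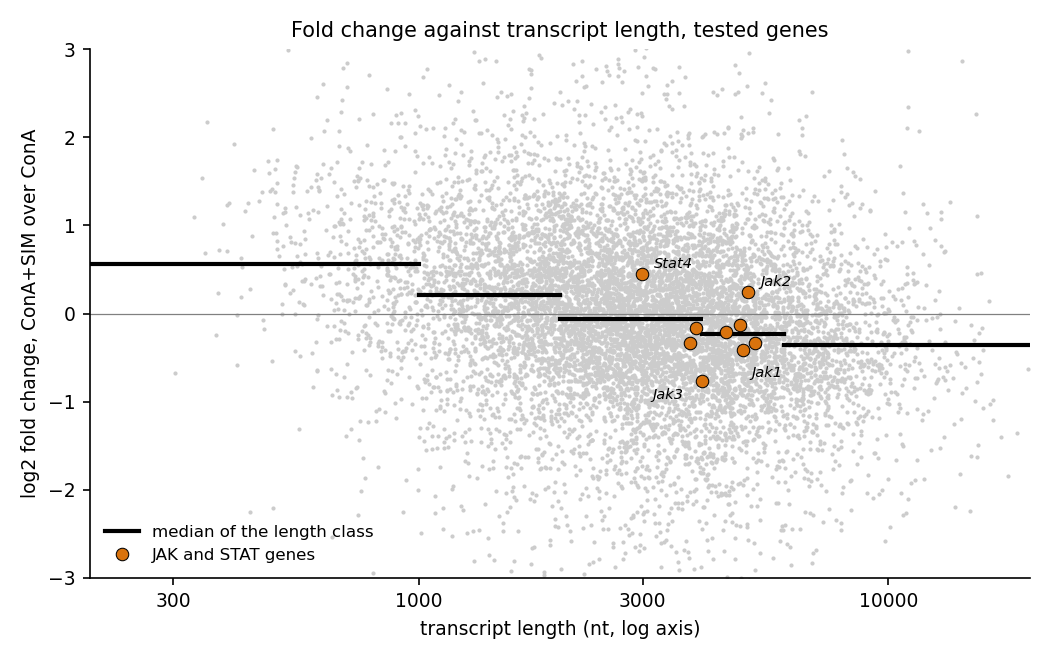
Log2 fold change (ConA+SIM over ConA, edgeR) against transcript length in nt on a log axis. Grey points are tested genes within ±3, black lines the median of each of 5 length classes, and orange points the JAK and STAT genes, which lie in classes with medians of -0.061 and -0.23.

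Levels can be compared between genes only per length. In CPM per kb of transcript, averaged over the 6 libraries, Jak1 was the most abundant member at 163 ± 35.2 (SD, n = 6), higher than 95.8% of the 10036 tested genes with a length. Jak2 followed at 82.7 ± 15.4 and Stat4 at 66.8 ± 19.7. Stat5b (47.7 ± 12.8), Stat3 (46.4 ± 16.6) and Stat6 (45.7 ± 13.1) did not differ beyond their spread. Jak3 (27.5 ± 10.8), Tyk2 (22.8 ± 6.84) and Stat5a (15.5 ± 5.70) were lowest, with Stat5a still above 55.8% of tested genes. Of the neighbours in this order, Jak1 was above Jak2 in 6 of 6 libraries, Jak2 above Stat4 in 5, Stat4 above Stat5b in 3, Stat5b above Stat3 in 3, Stat3 above Stat6 in 2, Stat6 above Jak3 in 5, Jak3 above Tyk2 in 4 and Tyk2 above Stat5a in 4. Jak1 was first in every library.

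Shares within a family do not depend on how libraries are scaled. A library's trend with transcript length or GC content does not cancel in them, and the shares were not recomputed with the offsets. Jak2 (44.3% GC) and Stat4 (45.4%) have the lowest GC content of their families. With length and GC offsets the log2 fold change of Jak2 was 0.18, beside 0.48 for Tyk2, -0.20 for Jak1 and -0.17 for Jak3. That of Stat4 was 0.27, beside 0.20 for Stat3, 0.30 for Stat5a, 0.14 for Stat5b and 0.072 for Stat6. Jak2 made up 29.5%, 20.1% and 22.1% of the summed counts per kb of the 4 JAK genes in ConA and 31.4%, 31.6% and 35.6% in ConA+SIM. It was the sole share among 9 whose groups did not overlap, with means of 23.9% ± 4.94 and 32.9% ± 2.34 (two-sided exact permutation p = 0.1, the smallest that 3 against 3 can give; 0.5 adjusted over 10 such tests). Leaving out 1 library at a time gave differences of 7.06 to 11.7 percentage points. The share of Jak1 was 57.9% ± 5.83 in ConA and 51.6% ± 6.50 in ConA+SIM (exact permutation p = 0.2). Its difference of -6.33 percentage points ran from -3.68 without ConA+SIM replicate 1, through -9.65 without ConA replicate 1, to -9.95 without ConA+SIM replicate 2. The share of Jak3 was 10.7% ± 2.26 and 7.56% ± 2.39 (exact permutation p = 0.2). Tyk2 held 7.50% ± 0.937 and 8.01% ± 4.03.

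Among the 5 STAT members, Stat4 held 25.2% ± 5.06 of the summed counts per kb in ConA and 35.0% ± 9.22 in ConA+SIM (exact permutation p = 0.2). In single libraries its share was 19.8%, 29.8% and 26.0% in ConA and 34.4%, 26.1% and 44.6% in ConA+SIM, so the groups overlapped at ConA+SIM replicate 2. Without ConA+SIM replicate 3 the difference between the means was 5.05 percentage points in place of 9.82. Stat3 ranged from 13.6% to 30.7%, both in ConA. Stat5b took 23.6% ± 7.50 and 19.8% ± 6.62, Stat6 22.3% ± 4.96 and 18.4% ± 4.07 and Stat5a 7.43% ± 3.55 and 6.80% ± 2.62. The log2 ratio of Stat5a to Stat5b per kb was -1.76 ± 0.91 in ConA and -1.58 ± 0.56 in ConA+SIM (exact permutation p = 0.8).

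**Figure D4:**
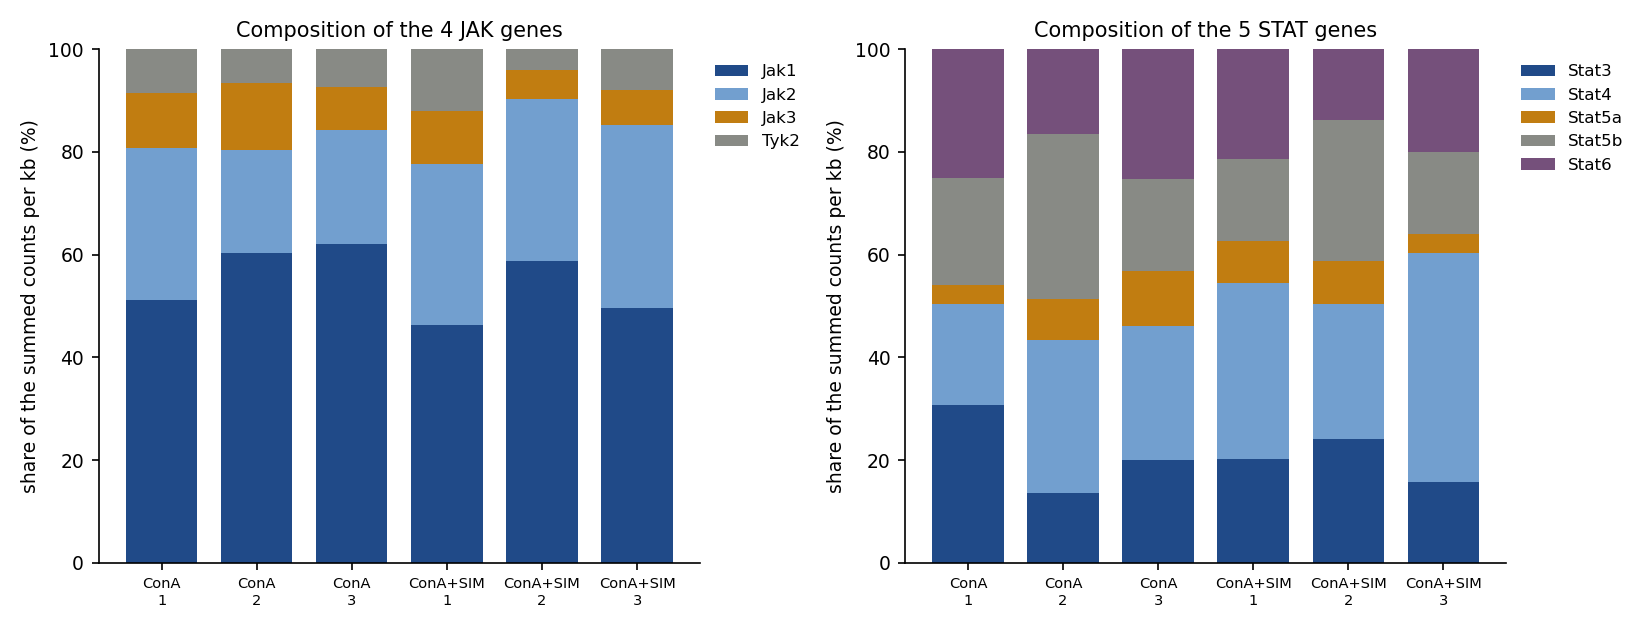
Share of each gene, in percent, of the summed counts per kb of the 4 JAK genes (left) and the 5 STAT genes (right), 1 bar per library. Jak1 is the largest JAK share in every library, from 46.3% to 62.2%, and the Jak2 band is wider in the 3 ConA+SIM bars than in the 3 ConA bars.

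The 9 members did not share one pattern over the libraries. ConA+SIM replicate 2 was the lowest library for 3 of them (Jak3, Tyk2 and Stat6) and the highest for 0, and the mean profile of the 9 genes on a centred log2 CPM scale was -0.31 there against -0.049 to 0.11 in the others. By the root mean square difference of centred log2 CPM over 6 libraries, Jak2 and Stat4 were the closest pair (0.28), followed by Jak1 and Stat5b (0.32) and by Tyk2 and Stat6 (0.32). Stat5a was farthest from the mean profile (0.54). Of 4264 other tested genes with a mean of at least 50 CPM, those nearest to the mean profile were Ppp1r12c (difference 0.074), Sptan1 (0.084), Hexa (0.086), Suz12 (0.088) and Atg4b (0.092). Sptan1, which encodes a spectrin chain, stood at 394 ± 21.1 and 316 ± 43.0 CPM, and Suz12, a subunit of Polycomb complex 2, at 296 ± 27.2 and 251 ± 34.9 CPM.

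The promoter windows of the members in the RefSeq table (GRCm38.p6, 300 bases around each start, 12 windows for 9 genes) were searched on both strands for STAT motifs. The motif TTCNNNGAA occurred in 0 of the 12 and in 8.30% of all 32851 windows, and TTCNNNNGAA, the spacing that STAT6 prefers, in 0 of 12 and 6.95%. GGAAA, the core that NFAT factors bind (NFATC3 is named in the series title), occurred in 8 of 12 and in 61.3% of all windows. These letters alone do not mark a binding site. Both Stat5b windows (100850532 to 100850831 and 100822521 to 100822820) lie inside the gene as placed above. The 346 bases between Stat5b and Stat5a were not covered by any member window, so the search does not speak to them.

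The other genes of the pathway were read by role, from lists of 88 genes of which 74 were tested. Higher values in ConA+SIM were found for 31 and lower values for 43 (58.1%, beside 52% of all tested genes). None (0 of 74) was called in either direction, beside 0.542% of all tested genes, and 8 (10.8%, beside 8.85%) had an unadjusted p under 0.05. The groups did not overlap for 11 of the 74 (14.9%, beside 17.8% of all tested genes), 5 higher and 6 lower in ConA+SIM. These shares are near those over all tested genes. Irf9 and Stat2, which join in the response to type I interferons, had log2 fold changes of 0.59 ± 0.38 (edgeR adjusted p = 0.832) and -0.55 ± 0.71 (edgeR adjusted p = 0.999). Irf9 stood at 79.2, 112 and 88.5 CPM in ConA and at 93.4, 214 and 114 CPM in ConA+SIM, highest in ConA+SIM replicate 2. Stat2, like Tyk2, was lowest in ConA+SIM replicate 2, at 10.3 CPM against 51.3 to 112 in the other libraries.

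Of 20 cytokines that signal through JAKs, 8 had enough counts, 4 higher and 4 lower, with a median of 0.13. Il10, an anti-inflammatory cytokine that signals through JAK1, TYK2 and STAT3, averaged 96.2 ± 37.4 CPM without and 198 ± 65.5 CPM with simvastatin (difference of 1.04 ± 0.39 on the log2 scale, edgeR adjusted p = 0.433). Il4, the ligand of the STAT6 route, had values of 6.74, 13.4 and 20.2 CPM in ConA and 38.2, 88.4 and 33.7 CPM in ConA+SIM, groups that did not overlap (edgeR adjusted p = 0.443). Ifng, a Th1 product that acts through JAK1 and JAK2, stood at 208, 124 and 80.1 CPM in ConA and 355, 249 and 172 CPM in ConA+SIM, groups that did overlap. Lif, of the interleukin-6 family, had 0 counts in ConA replicates 1 and 2.

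Of 23 receptor chains 21 were tested, 6 higher and 15 lower, with a median of -0.14. Il2rg, which recruits JAK3, stood at 459, 534 and 568 CPM in ConA and 341, 416 and 440 CPM in ConA+SIM. These groups did not overlap, as for Jak3; the log2 difference was -0.38 ± 0.20 (edgeR adjusted p = 0.675). Il12rb2, the IL-12 receptor chain that docks STAT4, stood at 26.4 ± 7.80 and 57.6 ± 21.0 CPM, again without overlap (1.13 ± 0.56, edgeR adjusted p = 0.652). Il10ra, the interleukin-10 receptor chain, stood at 210 ± 93.3 and 141 ± 31.3 CPM, with overlap (edgeR adjusted p = 0.805).

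The brakes on the pathway, 18 of 18 tested, split into 9 higher and 9 lower with a median of 0.035. Ptpn6, the phosphatase SHP-1 that dephosphorylates JAKs and T cell receptor kinases, had the smallest p of the pathway genes. It stood at 324, 528 and 321 CPM in ConA and 229, 103 and 172 CPM in ConA+SIM, groups that did not overlap. The difference, -1.22 ± 0.34 on the log2 scale, missed the threshold by edgeR (adjusted p = 0.27) and passed it by DESeq2 (-1.25, adjusted p = 0.00209), the sole call among members and pathway genes in any alternative. Socs4, of the suppressor of cytokine signalling family, stood at 47.3 ± 9.41 and 87.3 ± 12.0 CPM without overlap (edgeR adjusted p = 0.552). The phosphatase gene Ptpn1 stood at 226 ± 93.1 and 159.6 ± 15.8 CPM, with overlap (edgeR adjusted p = 0.834).

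Of 24 genes known as STAT targets in T cells, all tested, 11 were higher and 13 lower, with a median of -0.12. The smallest p-values belonged to 3 genes with lower values and no overlap between groups. Mcl1, a survival gene, separated the other way (858 ± 92.0 and 1073 ± 86.2 CPM, edgeR adjusted p = 0.672). Maf, a factor of Th2 and follicular helper cells, stood at 225 ± 40.6 and 133 ± 23.7 CPM (log2 fold change -0.76 ± 0.27, edgeR adjusted p = 0.4). Furin, a protease gene that STAT4 activates in Th1 cells, stood at 151 ± 8.71 and 80.9 ± 27.7 CPM (-0.90 ± 0.33, edgeR adjusted p = 0.422). Ccnd2, the cyclin D2 gene and a STAT5 target, stood at 214 ± 15.4 and 130 ± 37.7 CPM (-0.72 ± 0.29, edgeR adjusted p = 0.495).

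**Figure D5:**
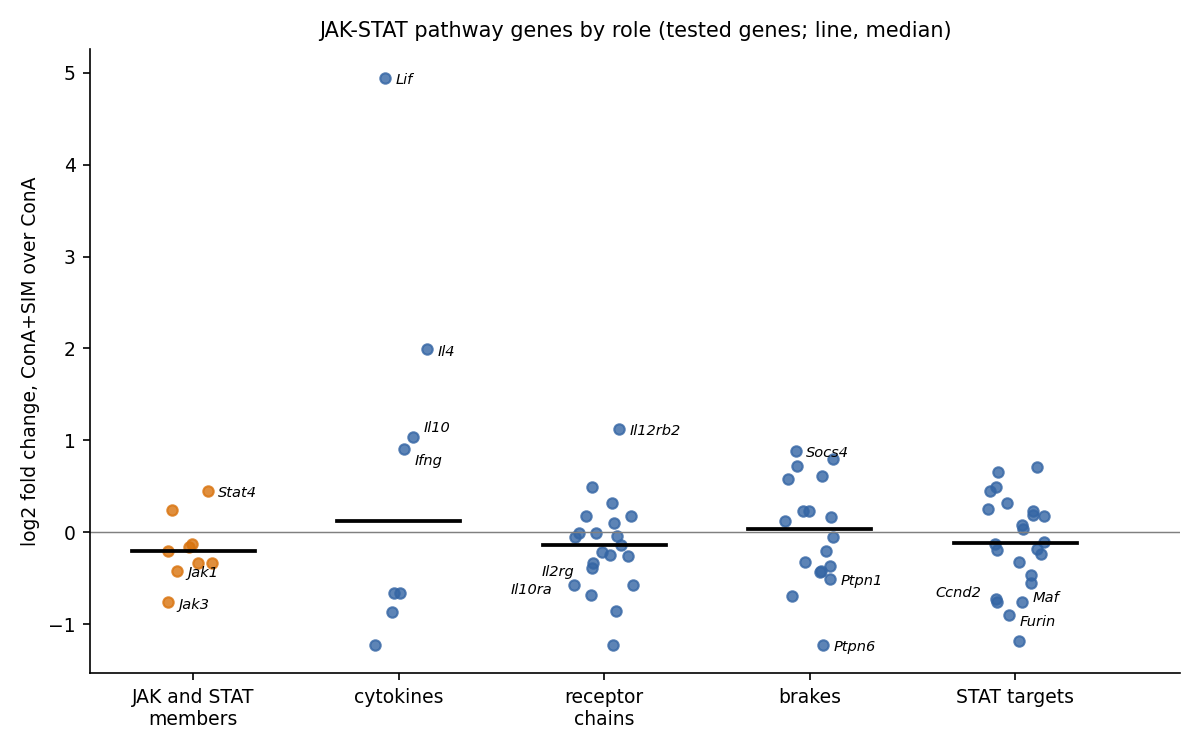
Log2 fold change, ConA+SIM over ConA, of the tested members, cytokines, receptor chains, brakes and STAT targets; each point is a gene and each line the median of its list. Most points lie between -1 and 1, and the highest, Lif, rests on a ConA group with 0 counts in 2 of 3 libraries.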

How the data were processed

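RNA sequencing counts of 6 libraries were used. The authors' deposited file holds unnormalized read counts as whole numbers, 1 row per gene and 1 column per library, and 0 columns were left unused. HISAT2 2.1.0 and GRCm38 were named per the submitters' processing notes; the counting tool, the annotation, the strand setting and the handling of multiply matching reads: not given in the sources used here. Genes were kept by filterByExpr, scaled by TMM and tested with the quasi-likelihood F test of edgeR 4.0.16 (robust, no covariates, ConA+SIM over ConA, R 4.3.3), with Benjamini and Hochberg adjustment over all 10509 tested genes at 0.05. Intervals are 95% confidence intervals, the fold change ± the matching quantile of t times its SE. Levels per kb and offsets used 1 GENCODE M21 transcript per gene (APPRIS principal first, then longest), which 95.5% of tested genes had; the offsets were lowess trends (span 0.3) per library. Gene coordinates and promoters are from RefSeq on GRCm38.p6, where all 9 members matched. Shares were tested by exact permutation in a family of 10; the plan spoke of 6 STAT members by mistake, and the 5 there are were used. The ratios of Jak2 to Jak1 and of Stat4 to Stat6, chosen after the values were seen, were also computed (12 tests in all at that stage) and then left out; no test of 3 against 3 can go below 0.1. The fitting procedure was tested on simulated data.

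Alternatives were RLE scaling, no filter, 5 CPM in 3 samples, DESeq2 1.42.0, limma 3.58.1 voom with and without quality weights, a replicate block, the offsets, and leaving out each library. The members and gene lists were chosen with earlier results of these data known. Named were all 9 members, pathway genes past the threshold, up to 3 genes per list by smallest p, and the 5 genes nearest to the mean profile (log2 of CPM + 1); Lif was added after its values were seen, and 1 gene that this rule names is not reported here. No 2 libraries of a group agreed within sampling noise (chi-square at least 142 times its degrees of freedom).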

Additional observations from a re-analysis of the deposited data

How the results depend on the processing

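Jak1 and Jak3 (lower) and Jak2 and Stat4 (higher) kept their direction in the 16 alternatives run for each, and none of the 9 members was called in any of them. With length and GC offsets the sign turned for Tyk2 (0.48), Stat3 (0.20), Stat5a (0.30), Stat5b (0.14) and Stat6 (0.072), as it did with a replicate block added to those offsets (0.32, 0.32, 0.33, 0.17 and 0.055). Tyk2 also turned with length offsets (0.069), with voom quality weights (0.067) and without ConA+SIM replicate 2 (0.22). Stat3 turned without ConA replicate 1 (0.24), and Stat5a without ConA replicate 3 (0.20) or ConA+SIM replicate 3 (0.11). The cause was not tested.

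Over all genes, 57 were called higher and 0 lower (372 lower at an unadjusted p under 0.05). The counts were 347 higher and 193 lower by DESeq2, 120 higher and 8 lower by limma-voom, and 127 higher and 10 lower when voom had quality weights. RLE scaling and no filter each gave 1 lower. The replicate block, the length offsets, the length and GC offsets and the block with those offsets each gave 0 higher. Leaving out 1 library gave 0 to 3 higher. Among the pathway genes DESeq2 called 1 lower, Ptpn6. Same-numbered libraries did not deviate together (correlations of 0.042, 0.0097 and -0.050 over 8669 genes). The labels do not say whether replicate numbers pair samples, and low correlations between so few libraries cannot exclude it. With the replicate block Jak1 stood at -0.41, Jak3 at -0.76 and Stat4 at 0.40. Leaving out 1 library moved the fold change of Tyk2 between -0.45 and 0.22, of Stat3 between -0.49 and 0.24, of Stat5a between -0.46 and 0.20, of Stat5b between -0.54 and -0.12 and of Stat6 between -0.55 and -0.10. Differences in family share moved by less than 1 SD with the longest transcript or with raw counts, but for 5 of the 10 quantities leaving out 1 library turned the sign: the share of Tyk2 (-1.52 to 2.51 percentage points), Stat3 (-5.33 to 3.19), Stat5a (-2.51 to 1.02) and Stat5b (-7.64 to 0.43), and the log2 ratio of Stat5a to Stat5b (-0.20 to 0.68). The other differences in share ran from -9.95 to -3.68 percentage points for Jak1, 7.06 to 11.7 for Jak2, -4.46 to -2.02 for Jak3, 5.05 to 14.3 for Stat4 and -6.80 to -1.62 for Stat6.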
